A study of Mus musculus with 2 samples.

Results

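Mir335, Mir483, Mir675, Mir296 and Mir298 are microRNA genes of the imprinted loci around Mest, Igf2, H19 and Gnas. They were taken by name, as the microRNA genes of imprinted loci outside the Dlk1-Dio3 region and Sfmbt2, and make up 5 of the 1973 microRNA genes counted. All 5 matched an Ensembl identifier of the tables to a GENCODE M21 symbol, and all 5 had counts in both animals. The data are microRNA sequencing of total RNA from whole kidney of B6NCrl mice at postnatal day 0, made from the 2 kidneys of each of 2 pups of the same pregnancy, pup 1 and pup 2. The labels state no treatment and no altered allele, state that sex was not collected, and give a size range below 30 without its unit. With a single tissue and age, comparisons can be made among the 5 genes, with other microRNA genes, and between the pups.

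An imprinted gene is expressed mainly from the allele of one parent, and such genes are known for control of growth before and around birth. Mest and Igf2 are known in the mouse as paternally expressed, H19 as maternally expressed, and the Gnas locus gives rise to maternal, paternal and biallelic transcripts, among them the paternal antisense transcript Nespas. A microRNA is cut from a hairpin in a longer transcript, and either arm of the hairpin can be loaded into a silencing complex, where its seed, bases 2 to 8, directs pairing with messenger RNAs. The counts do not separate parental alleles or the arms of a hairpin, so neither imprinted expression nor arm use was measured.

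Positions are on mm10, counted from 1. Mir335 (ENSMUSG00000065501.1) spans 30741299 to 30741396 of chromosome 6, plus strand, in an intron of all 7 Mest transcripts that span it. Mir483 (ENSMUSG00000070140.1) spans 142654924 to 142654996 of chromosome 7, minus strand, in an intron of 7 transcripts of Igf2, a fetal growth factor, and of 1 transcript of the overlapping gene model Gm49394. Mir675 (ENSMUSG00000076275.1) spans the same strand from 142577064 to 142577147, 77.8 kb from Mir483. It is inside an exon of 3 transcripts of the long noncoding RNA H19 and in an intron of 1 other. Mir296 (ENSMUSG00000065521.1), from 174267047 to 174267125, and Mir298 (ENSMUSG00000065410.1), from 174267504 to 174267585, lie on the minus strand of chromosome 2 with 378 bases between them. GENCODE M21 places neither in a host gene of the types considered. Nespas, annotated on the same strand, ends 14111 bases from Mir296 and 13651 bases from Mir298, and Gnas, on the other strand, begins 17194 bases from Mir296 and 16734 from Mir298. Within 100 kb of any of the 5 hairpins, the annotation holds 1 further microRNA gene with a row in the tables, Gm27591 near Mir296, which had 0 counts in both pups.

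**Figure D1:**
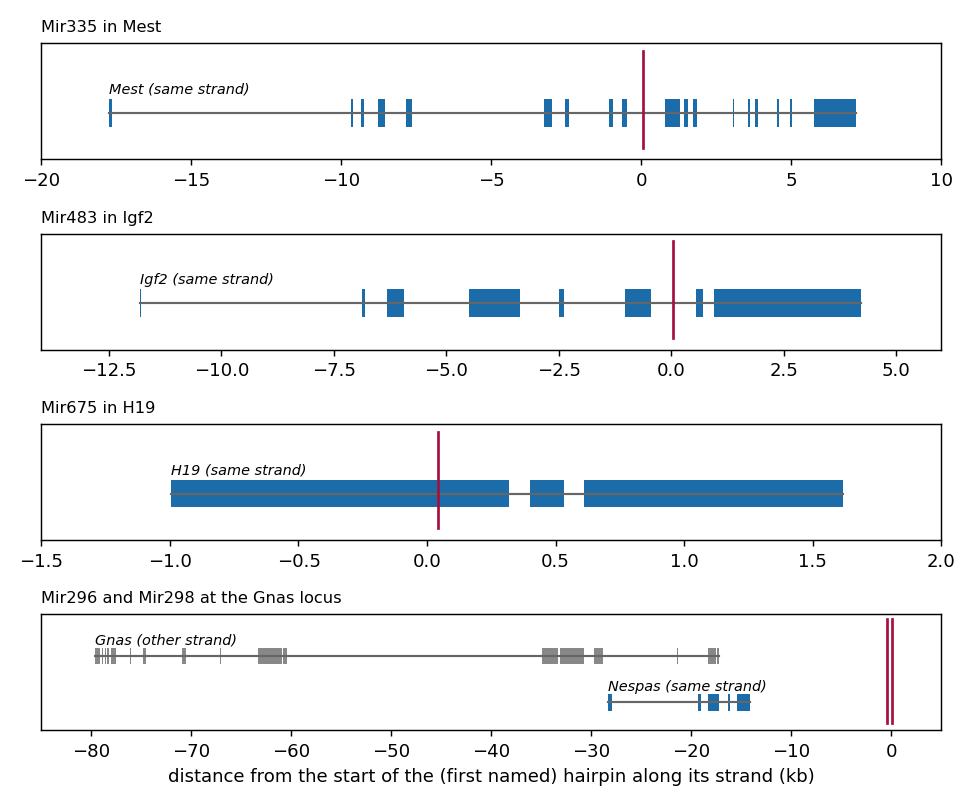
Maps of the 4 loci, with distance in kb from the start of the hairpin along its own strand; red lines are hairpins, boxes the exons of any transcript in GENCODE M21, blue for genes on the strand of the hairpin and grey for the other strand. Mir335 and Mir483 fall between exons of Mest and Igf2, Mir675 falls inside an exon of H19, and Mir296 and Mir298 stand 378 bases apart beyond the end of Nespas.

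The mature sequences are shown because the seeds set the 5 genes apart from one another and from other microRNAs. They come from RefSeq (GRCm38.p6), where all 5 genes were found, and run 5′ to 3′ with the seed in capitals.
miR-335-5p: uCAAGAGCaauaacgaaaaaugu
miR-335-3p: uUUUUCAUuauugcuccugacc
miR-483-5p: aAGACGGGagaagagaagggag
miR-483-3p: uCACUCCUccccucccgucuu
miR-675-5p: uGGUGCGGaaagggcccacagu
miR-675-3p: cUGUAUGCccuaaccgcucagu
miR-296-5p: aGGGCCCCcccucaauccugu
miR-296-3p: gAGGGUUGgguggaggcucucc
miR-298-5p: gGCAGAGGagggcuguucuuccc
miR-298-3p: gAGGAACUagccuucucucagcuu
None of the 10 arms shared its seed with another arm of the 5 genes or with any other mature sequence of the RefSeq table, which holds 1674 different ones. A seed held by no other sequence is common there, at 72.5% of the different mature sequences. The 5 genes therefore formed no seed family, and Mir296 and Mir298, which lie side by side, had different seeds on both arms. Of the 10 arms, 4 began with U, against 41.0% of all different mature sequences.

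The hairpins of Mir335, the most abundant of the 5, and of the neighbours Mir296 and Mir298 show where these arms sit, with both mature arms in capitals.
Mir335: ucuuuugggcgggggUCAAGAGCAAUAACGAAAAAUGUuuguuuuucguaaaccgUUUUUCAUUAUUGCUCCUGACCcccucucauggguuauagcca
Mir296: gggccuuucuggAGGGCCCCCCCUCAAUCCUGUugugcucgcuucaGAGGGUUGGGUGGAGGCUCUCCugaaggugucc
Mir298: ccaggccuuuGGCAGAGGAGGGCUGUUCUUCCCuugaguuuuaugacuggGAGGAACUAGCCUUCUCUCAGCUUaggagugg
These 3 are the RefSeq hairpins, identical to GENCODE M21 at the positions given above. The Mir296 and Mir298 hairpins shared no stretch longer than 7 bases. Against the 2201 other microRNA hairpin transcripts of GENCODE M21, the longest stretch shared by any of the 5 hairpins was 14 bases, between Mir335 and the reverse complement of another hairpin. None of the 5 thus shares the 22 bases of a whole mature arm with another annotated hairpin, and copies elsewhere in the genome were not looked for. Base composition differed within the group. The arms of Mir335 held 30.4% (5p) and 36.4% (3p) G and C, below the median of 52.2% over different mature sequences, while those of Mir296 held 66.7% (5p) and 68.2% (3p), above it. The arms of Mir483 held 54.5% (5p) and 61.9% (3p), those of Mir675 63.6% (5p) and 54.5% (3p), and those of Mir298 65.2% (5p) and 50% (3p).

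Levels are given in CPM, counts scaled to the total of all named genes of a library, which was 5832192 in pup 1 and 3846704 in pup 2, as mean ± SD over the 2 pups. They were not divided by length, because a read covers 1 mature arm and the 10 arms are 21 to 24 bases long. Orders and ratios between genes describe reads and not molecules, since the yield of reads per molecule is not known for any of them. Multimapping reads, 30.3% of all reads in pup 1 and 31.0% in pup 2, are not in the gene counts. In whole tissue, fewer cells of a type and less RNA per cell cannot be told apart. As a check of the tissue, the summed level of the epithelial miR-200 genes was 31551 CPM in pup 1 and 31660 in pup 2. That of the Hox cluster microRNAs of the posterior body was 252411 and 242184. The 4 proximal tubule genes summed to far less, 848 CPM in pup 1 and 896 in pup 2, with none at 0. The striated muscle markers summed to 5.14 and 4.42 CPM, with 4 of 5 at 0 counts, and the neural markers to 17.7 and 19.8, with 3 of 6 at 0. The neural genes at 0 are the copies of Mir124a, and the muscle genes at 0 include copies of Mir133a. Reads that fit several copies equally would be multimapping and left out. These low sums therefore do not show that neural or muscle RNA was absent. Markers of other sources were higher, with the liver marker Mir122 at 56.9 CPM in pup 1 and 44.2 in pup 2, the 3 endocrine pancreas genes summing to 118 and 141 with 1 at 0, and 4 leukocyte genes to 735 and 672 with none at 0.

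Mir335, carried by Mest and known in human breast cancer cells as a suppressor of metastasis, dominated the group. It had 328421 counts, or 56312 CPM, in pup 1 and 206173 counts, or 53597 CPM, in pup 2, a mean of 54955 ± 1919. That put it at rank 4 of all microRNA genes in each pup, and at rank 3 of 854 microRNA genes that lie on the strand of a protein-coding gene. Ranks, here and for the other members, are by counts without multimapping reads. Genes with copies at several places may therefore rank lower than all their reads would put them. In the sum of the 5 genes, Mir335 held 93.1% ± 0.173 of counts. The genes nearest in level, by mean log2(CPM + 1) over the pups, were Mir10b of the Hoxd cluster, with 69950 CPM in pup 1 and 67721 in pup 2, and endothelial Mir126a above it, and Mirlet7g, with 52870 and 50646 CPM, and Mir322 below it. The range of Mir335 over the pups overlapped none of these 4, although its lower value stood only a little above the higher value of Mirlet7g.

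Mir483, carried by Igf2 and known to be raised together with it in human Wilms tumour, a kidney cancer of childhood, stood far lower. It had 1979 counts, or 339 CPM, in pup 1 and 1356 counts, or 353 CPM, in pup 2, a mean of 346 ± 9.32 at rank 108. Mir369 of the Dlk1-Dio3 region and the hypoxia microRNA Mir210 were nearest above and Mir339 and Mir132 nearest below. The pup ranges of the first 3 of these genes overlapped that of Mir483, and Mir132, with 326 CPM in pup 1 and 335 in pup 2, was inside the counting interval of Mir483 in each pup (325 to 355 CPM in pup 1, 334 to 372 in pup 2). The place of Mir483 among these 4 genes is thus not resolved.

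Mir675, cut from H19 and known to limit growth of the mouse placenta, was the lowest of the 5. It had 165 counts, or 28.3 CPM, in pup 1 and 111 counts, or 28.9 CPM, in pup 2, a mean of 28.6 ± 0.399 at rank 211. Its 95% Wilson intervals, 24.3 to 32.9 CPM in pup 1 and 24.0 to 34.7 in pup 2, cover counting error only and were far wider than the distance between the pups. Nearest in level were Mir326 and Mir193b above and Mir543 and Mir485, both of the Dlk1-Dio3 region, below, at means between 25.9 and 29.4 CPM. Of these, the ranges of Mir326 and Mir543 overlapped that of Mir675, and Mir193b and Mir485 lay within its counting intervals, so its order among its neighbours is not resolved at this depth.

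The Gnas locus contributed the second and the third gene by level. Mir296, known from human endothelial cells as a promoter of vessel growth, had 15247 counts, or 2614 CPM, in pup 1 and 8631 counts, or 2244 CPM, in pup 2, a mean of 2429 ± 262 at rank 48. Mir298, reported to repress the β-secretase gene Bace1 in mouse cells, had 7483 counts, or 1283 CPM, in pup 1 and 4935 counts, or 1283 CPM, in pup 2, a mean of 1283 ± 0.0951 at rank 70. The pups agreed on Mir298 more closely than its counting error, which was 1.16% of the value in pup 1 and 1.42% in pup 2, so that SD understates its uncertainty. The nearest genes to Mir296 were Mir872 and Mir18, of the miR-17~92 cluster, above and Mir181d and Mir182 below, and the pup ranges of Mir872 and Mir181d overlapped that of Mir296. Nearest to Mir298 were Mir149 and Mir200a, of the epithelial miR-200 family, above and Mir28a and the smooth muscle gene Mir145a below. Their ranges did not overlap the narrow range of Mir298. In pup 2, though, Mir149, at 1301 CPM, and Mir28a, at 1271 CPM, were inside the counting interval of Mir298 in each pup (1254 to 1312 CPM in pup 1, 1248 to 1319 in pup 2). In pup 1 they had 1343 and 1054 CPM, outside these intervals. The order of Mir298 against both is thus not resolved from counting error in pup 2.

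**Figure D2:**
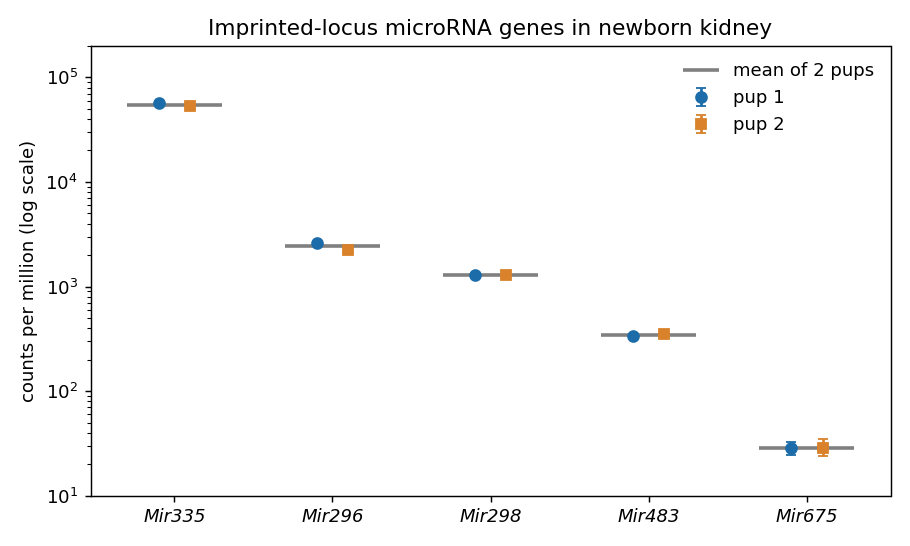
Level of each gene in CPM on a log axis, with pup 1 as circles, pup 2 as squares, 95% Wilson counting intervals as whiskers (often smaller than the symbol) and the mean of both pups as a grey line. The genes fall in the same order in both pups, with Mir335 near 54955 CPM at one end and Mir675 near 28.6 CPM at the other.

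Ratios within a library need no scaling, and they kept the order of the 5 genes in both pups. Mir335 exceeded the other 4 genes together 13.2-fold in pup 1 and 13.7-fold in pup 2, and it exceeded Mir296, the next gene, 21.5-fold and 23.9-fold. Mir298 exceeded Mir483 3.78-fold in pup 1 and 3.64-fold in pup 2. The microRNAs of the neighbouring and oppositely imprinted genes Igf2 and H19 were 11.99-fold (Mir483 over Mir675) apart in pup 1 and 12.2-fold in pup 2, with counting intervals of 10.2 to 14.1 and 10.1 to 15.0. From the highest to the lowest gene, Mir335 over Mir675, the distance was 1990-fold in pup 1 and 1857-fold in pup 2. The spread among the 5 genes was thus far larger than the spread between pups of any 1 of them.

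Ratios that involve Mir296 differed between the pups, the ratio of Mir335 to Mir296 with 95% exact counting intervals of 21.2 to 21.9 in pup 1 and 23.4 to 24.4 in pup 2. Within the Gnas locus, Mir296 exceeded Mir298 2.04-fold in pup 1, with a 95% exact counting interval of 1.98 to 2.09, and 1.75-fold in pup 2, with an interval of 1.69 to 1.81. In neither case do the intervals of the pups overlap, so both ratios differed between the libraries by more than counting error. On the CPM scale Mir298 was the same in both pups to 3 digits, and the difference lay in Mir296.

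**Figure D3:**
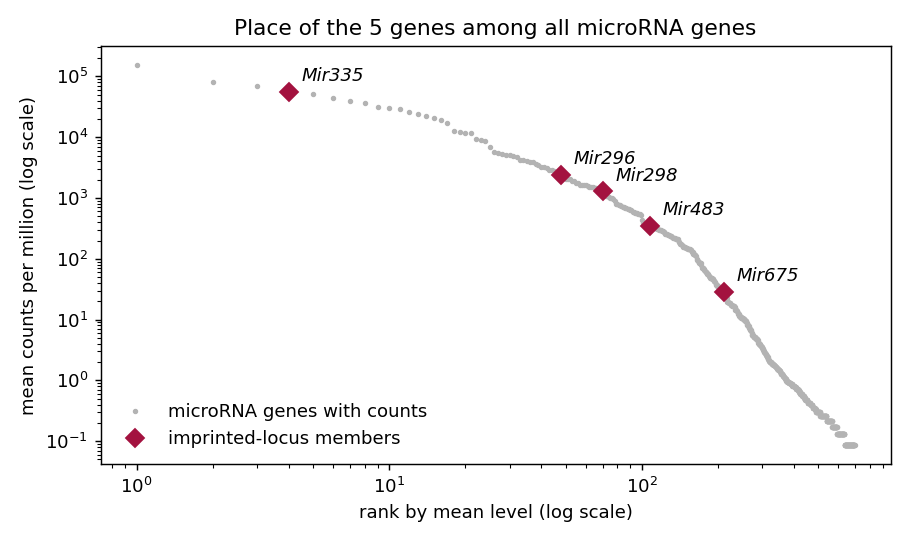
Mean CPM against rank, both on log axes, for all microRNA genes with counts (grey) and the 5 genes (diamonds). Mir335 sits at rank 4 among the most abundant genes, Mir296, Mir298 and Mir483 at ranks 48, 70 and 108, and Mir675 at rank 211 on the steep part of the curve.

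Together the 5 genes took up 6.06% of the counts of pup 1 and 5.75% of those of pup 2, with 95% Wilson intervals of 6.04 to 6.08 and 5.73 to 5.77. Without Mir335 the other 4 held 0.426% and 0.391%. All 5 reached 10 CPM in both pups, as did 246 of the 1973 microRNA genes, or 12.5%. At 1000 CPM in both pups, 3 of the 5 remained, and 73 of all genes. The median level of the 5 was 1283 CPM, beside 268 CPM over the 246 genes with at least 10 CPM in both pups.

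Other microRNA genes of imprinted loci were set beside them by position, as the 59 genes between Dlk1 and Dio3 on chromosome 12 and the 107 genes inside Sfmbt2 on its strand, both regions with large microRNA clusters. The 5 genes, at 5.90% ± 0.217 of counts, stood above the Dlk1-Dio3 genes at 0.808% ± 0.105 and the Sfmbt2 genes at 0.273% ± 0.0151. The order against the Dlk1-Dio3 genes rests on Mir335, since the other 4 genes held 0.409% ± 0.0252 together. That share was below the Dlk1-Dio3 genes and still above the Sfmbt2 genes as counted here. In pup 1 the 5 genes had 8.26 times the counts of the Dlk1-Dio3 genes and in pup 2 6.52 times. Without Mir335 the ratio was 0.582 in pup 1 and 0.443 in pup 2. With counts on either strand, the mean ratio over the pups fell from 7.39 to 6.39, and without Mir335 from 0.512 to 0.443. These ratios are given without a test, since an exact two-sided sign test over 2 pups gives a p of 0.5 or more.

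Gene by gene, no Dlk1-Dio3 or Sfmbt2 gene reached the mean level of Mir335 or Mir296. The highest in Dlk1-Dio3 were Mir411, at 1912 ± 458 CPM, and Mir127, at 1053 ± 145, so that Mir298 stood between them. In Mir411 the value of pup 2, 2236 CPM, came close to the 2244 CPM of Mir296 in that pup, so these genes are resolved in pup 1 only. The highest in Sfmbt2 were Mir467d, at 879 ± 115 CPM, and Mir467e, at 801 ± 11.8. Mir483 was exceeded by 6 of the 59 Dlk1-Dio3 genes and 3 of the 107 Sfmbt2 genes, and Mir675 by 24 and 6. At least 10 CPM in both pups was reached by 5 of 5, 32 of 59 and 7 of 107 genes. Sfmbt2 microRNAs have many near-identical copies, so their counts leave out any reads listed as multimapping and are uncertain.

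**Figure D4:**
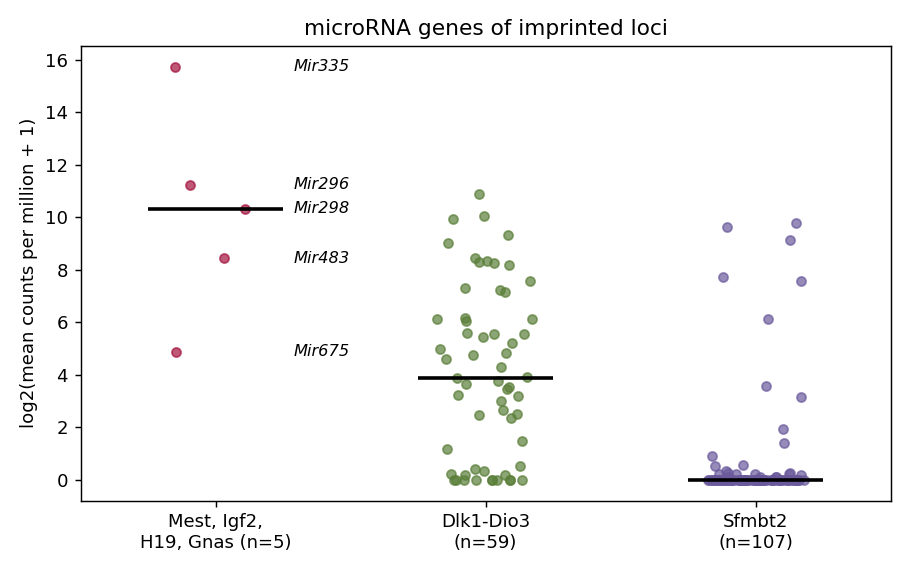
Mean level of each microRNA gene as log2(mean CPM + 1), for the 5 genes, the 59 genes of Dlk1-Dio3 and the 107 genes of Sfmbt2, with horizontal jitter and the median of each set as a black line. Mir335 lies above every gene of both other sets, while Mir675 lies below 24 of the 59 Dlk1-Dio3 genes and above their median.

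The pups were compared by an exact two-sided binomial test of both counts of a gene, given library sizes corrected for composition by edgeR's TMM method, over the 324 genes whose counts averaged 10 or more and with Benjamini-Hochberg adjustment over all of them. With 1 library on each side it sets 2 libraries against each other, not 2 conditions, and it knows only counting error. Of the 5 genes 2 passed a threshold of 0.05, both higher in pup 1, where 33.6% of the 324 genes passed in either direction, 21% as higher and 12.7% as lower in pup 1. A share of 2 in 5 is near that background and is no result about these genes.

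Mir335 was higher in pup 1 by 0.09 on the log2 scale (95% counting interval 0.08 to 0.10), with an exact binomial adjusted p of 6.4e-114. That is a small difference with a very small p, in a gene with 534594 counts over both pups. Mir296 was higher in pup 1 by 0.24 (0.20 to 0.28), with an exact binomial adjusted p of 8.7e-35. Mir298, its neighbour on the chromosome, had a log2 ratio of pup 1 over pup 2 of 0.02 (-0.03 to 0.07), with an exact binomial adjusted p of 0.608. The interval of Mir296 lies wholly above that of Mir298.

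The microRNAs of the Igf2 and H19 locus did not pass. Mir483 had a log2 ratio of -0.03 (-0.13 to 0.07) with an adjusted p of 0.699 by the exact binomial test. Mir675 had -0.01 (-0.36 to 0.35) with an adjusted p of 1 by the exact binomial test, and its wide interval leaves room for a change of a size that Mir296 showed. The median absolute log2 ratio was 0.03 over the 5 genes and 0.15 over all 324. The 324 include genes with mean counts down to 10, where counting error is larger. The medians therefore do not show that the 5 genes were steadier than others.

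An edgeR exact test that takes the spread between the pups into account called none of the 5 genes, with an adjusted p of 1 for each of them, and 0.309% of the 324 genes. The spread it used, a biological coefficient of variation of 9.29%, was estimated from the same 2 pups. Between the pups the coefficient of variation was 10.8% for Mir296, 3.49% for Mir335, 2.70% for Mir483 and 1.40% for Mir675. Cell type markers also moved between the libraries. The endothelial marker Mir126a had 71968 CPM in pup 1 and 87209 in pup 2. The 6 stromal and smooth muscle genes summed to 40300 and 44552, and the 3 erythroid genes to 241 and 98.8. Neither set moved as a whole. Mir143, with 34820 and 39014 CPM, made up most of the stromal sum. Like Mir145a it was higher in pup 2, while Mir214, Mir199a-1, Mir199a-2 and Mir199b were lower there. Among the erythroid genes, Mir451a had 208 CPM in pup 1 and 53.6 in pup 2, but Mir144 had 32.2 and 42.9. The part of these cell types in the differences of Mir335 and Mir296 was not tested.

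**Figure D5:**
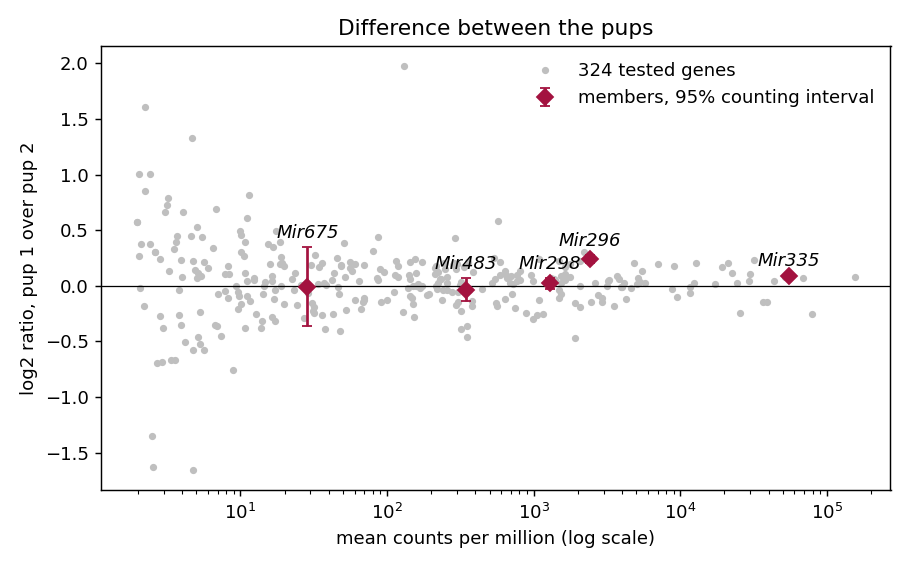
Log2 ratio of pup 1 over pup 2 against mean CPM on a log axis, for the 324 tested genes (grey) and the 5 genes (diamonds, with 95% counting intervals). Mir296, at 0.24, and Mir335, at 0.09, lie above 0 with intervals that exclude it, and the intervals of Mir298, Mir483 and Mir675 include 0.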

How the data were processed

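The authors deposited whole-number counts of reads for each microRNA gene, without normalisation, for 2 libraries. Reads were aligned to mm10 and counted over annotation M4, per the deposited notes. The aligner, its settings and the trimming were not given in the sources used here. Each library has 3 count columns without a header; the second was read, from the values, as counts on the strand of the gene and was used here. Rows without a gene name were kept out of library totals and of tests. Multimapping reads were 30.3% in pup 1 and 31.0% in pup 2, and unmapped reads 8.52% and 8.69%. Reads not on the strand of a listed gene were 2.91% and 2.92%, and include reads opposite to listed genes. This left 58.2% and 57.4% of reads as counted.

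Identifiers were matched without version to GENCODE M21 (mm10), 1894 of 1973. Where a count is 0, up to 3 counts are allowed, 0.514 CPM in pup 1 and 0.780 in pup 2; intervals cover counting error only, since reads carry no molecular identifiers. Log2 ratios used a prior count of 0.5. Tools were edgeR 4.0.16, DESeq2 1.42.0 (an alternative for size factors) and SciPy 1.17.1. The test between pups was checked on simulated counts that held counting error only, so the check does not cover the spread between animals. Genes named by a fixed rule are the 5 members, the 2 nearest in level on each side and the 2 highest of each other imprinted list. Host genes were taken from the annotation and cell type markers from a fixed list. Other microRNA genes were named after their values were seen. The members and lists were chosen with earlier results of these data known.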

Additional observations from a re-analysis of the deposited data

How the results depend on the processing

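Levels depend on the denominator. With all reads of a library in it, the share of the 5 genes was 3.41%, and the levels were 31782 CPM for Mir335, 1405 for Mir296, 742 for Mir298, 199.99 for Mir483 and 16.5 for Mir675. With Mir10a, the most abundant gene, left out of the total, the share was 6.98% and the levels were 64999, 2874, 1517, 409 and 33.8 CPM in the same order. With counts on either strand, Mir298 had 1257 and Mir675 28.0 CPM, and the ranks of Mir296, Mir298, Mir483 and Mir675 were 51, 73, 115 and 221, because the total and the genes above them change. Levels with TMM or DESeq2 factors, and every ratio with counts on either strand, moved by no more than the SD between pups. Either pup alone gave shares of 5.75% and 6.06%.

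The count of genes that differ between the pups, 109 of 324, was 1 under the edgeR exact test, which also ended the calls of Mir335 (log2 ratio 0.092) and Mir296 (0.242), since it adds the spread between the pups to counting error. Library totals, DESeq2 factors, no filter, a mean count of at least 100 and counts on either strand kept the direction and the call of all 5 genes. No paired analysis was possible because both pups form 1 group. The depth limits Mir675 most, with a counting error of 7.78% in pup 1 and 9.49% in pup 2.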

Other observations

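Reads opposite to the annotated strand were 3 in pup 1 and 1 in pup 2 at Mir335, and 0 in both pups at the other 4 genes. These do not exceed the 3 counts that a count of 0 allows.

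With bases 2 to 7 compared in place of bases 2 to 8, an alternative chosen after seeing the data, 6 of the 10 arms shared them with no other mature sequence, against 47.8% of all different mature sequences. Of the partners of the other 4 arms, 3 have a row in the tables, each below 1 CPM in both pups. Mir6986, whose 3p arm shares these bases with miR-335-3p, had 0.171 CPM in pup 1 and 0.260 in pup 2. Mir3110, which shares them with miR-483-3p, had 0.343 and 0.780 CPM, and Mir5621, which shares them with miR-296-5p, had 0 and 0.260 CPM. Mir7646, which shares them with miR-335-5p, was not analysed here.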
